A study of Oryctolagus cuniculus with 15 samples.

Results

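The transforming growth factor beta (TGFβ) and bone morphogenetic protein (BMP) branches of one signaling family were followed in cultured rabbit corneal keratocytes through 10 genes. These are the TGFβ ligands TGFB1, TGFB2 and TGFB3, the TGFβ receptors TGFBR1 and TGFBR2, the BMP-branch ligands BMP4, BMP6 and GDF5, and the inhibitory SMADs SMAD6 and SMAD7. The genes were chosen by symbol, and all 10 were present among the 23428 genes of the count table. Bulk RNA-seq was available for 15 libraries, with 5 conditions of 3 libraries, all from keratocytes of New Zealand white rabbits at first passage, kept in defined serum-free medium without added growth factor for 6 days. Cells grew on a collagen-coated dish (2DC), on top of a fibrillar matrix of type I bovine collagen (2DF), or embedded in such a matrix at 100000 (3DF) or 50000 cells per matrix (3DF_50). Before lysis, cells of 2DC, 2DF, 3DF and 3DF_50 were incubated in a digestion medium of collagenase and hyaluronidase, and 2DC_L is a collagen-coated dish to which lysis buffer was added directly. Cells from matrices were also pelleted after digestion, which cells of 2DC were not. Each library came from pooled dishes or matrices of 1 experiment, and 2DC and 2DF differ in stiffness as well as in fibrillar structure. Per the study, the effective cell density was lower in 3D than in 2D, so comparisons of 3D with 2D differ in density too.

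Ligands of this family are secreted dimers that bring together type II and type I receptors on the cell surface. The activated type I receptor then phosphorylates receptor SMADs, SMAD2 and SMAD3 in the TGFβ branch and SMAD1, SMAD5 and SMAD9 in the BMP branch, which enter the nucleus with SMAD4. TGFβ is released in a latent form bound to the matrix and has to be activated, whereas BMPs are held in check by extracellular antagonists such as noggin. In the corneal stroma, TGFβ is best known for turning quiescent keratocytes into contractile, matrix-depositing myofibroblasts after injury.

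Between 14626982 and 31804255 reads were counted per library, and between 28 and 9730 of them fell on a member of the set, with GDF5 the lowest (28 to 245 reads per library). Levels are given as FPKM, reads scaled by exon length and a normalized library size, so that levels of different genes can be compared per length. That size was 1.03 to 1.05 times the trimmed-mean (TMM) size, which lay above the counted total in 3DF_50 and below it in 2DC. FPKM of 3DF_50 relative to 2DC are thus lower than with scaling by the counted total, called library size alone below. Differences between conditions were tested on the counts with the quasi-likelihood F test of edgeR, and a differentially expressed gene (DEG) had a p, adjusted by the Benjamini–Hochberg method over all genes tested, of 0.05 or less together with a |log2 fold change| of at least 1. Positions are those of oryCun2. Keratocyte markers were high in every condition, with 8 of 10 listed genes matched by symbol, all of them at 1 FPKM or more, and a summed level between 21763 and 43578 FPKM. Epithelial markers were low, at 2.47 to 34.7 FPKM summed over 13 matched genes, and the corneal keratin KRT12 was at 0 in every library of 2DC and 2DC_L and at 2.47 to 4.40 FPKM in 3DF. Markers of immune cells summed to between 2.43 and 8.35 FPKM, and those of Schwann cells to between 1.70 and 3.94 FPKM. Corneal endothelial markers had the highest sum of the other cell types (5 genes, 3 of them at a mean of 1 FPKM or more in each condition) and were lower in 3D without overlap, at 369 to 484 FPKM in 2DC, 456 to 513 in 2DC_L and 461 to 564 in 2DF, against 214 to 279.7 (3DF) and 186 to 198 (3DF_50). Smooth muscle and pericyte markers summed to 7.19 to 10.6 FPKM on coated dishes and 3.01 to 6.08 FPKM in fibrillar collagen. Summed vascular endothelial markers were at 116.7 to 118.8 FPKM in 3DF, 49.9 to 75.5 FPKM in 3DF_50 and 32.9 to 67.8 FPKM in the 2D conditions. These sums rest on few genes: 2 of 5 vascular, 1 of 6 immune, 1 of 4 Schwann and 1 of 4 smooth muscle markers had a mean of 1 FPKM or more in each condition. The study reported CDH5, a listed vascular marker, and COL8A2, a listed corneal endothelial marker, among the genes that differed between these keratocyte cultures. Of 9 epithelial markers that passed the count filter in 3DF vs. 2DC, 6 were higher in 3DF. The part of such markers in the results below was not tested. In bulk RNA, a change in the level per cell and a change in the share of cells that express a gene cannot be told apart.

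The quality of the gene models also differs within the set. TGFB1 lies on the unplaced scaffold Un0091 (611966 to 626445, plus strand) with only 853 exon bases, and its model holds the TGFβ-like domain of the mature ligand. On the same scaffold, 8 other models carry a description that names TGFB1, 4 of them on the opposite strand, and 6 of the 8 had fewer than 10 reads per library on average. LOC100353067, on the opposite strand, held 9472 reads over all libraries (58.1% of the reads on these 9 models) against 5619 (34.4%) for the TGFB1 model. Whether any of them belongs to the TGFB1 transcript was not tested, and the FPKM of TGFB1 rests on this short model. The other members have between 1230 (BMP4) and 5658 (TGFBR1) exon bases.

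Levels of the members ran from 1.09 FPKM for GDF5 in a 2DC library to 92.9 FPKM for TGFBR2 in another. TGFBR2 was the most abundant member by mean FPKM in every condition. An F test for any difference among the 5 conditions passed an adjusted p of 0.05 in edgeR for 8 of the 10 members, where 41.8% of all genes passed. The exceptions were the inhibitory SMADs, at adjusted p = 0.111 for SMAD6 and 0.192 for SMAD7. With 1 library left out at a time, between 6 members (without 2DC replicate 2) and 10 members (without 3DF replicate 1) passed. The ratio of the highest to the lowest condition mean was 5.02 for GDF5, 2.87 for TGFB2, 2.48 for BMP4 and 2.42 for BMP6, and it was below 2 for each of the other 6 members.

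**Figure D1:**
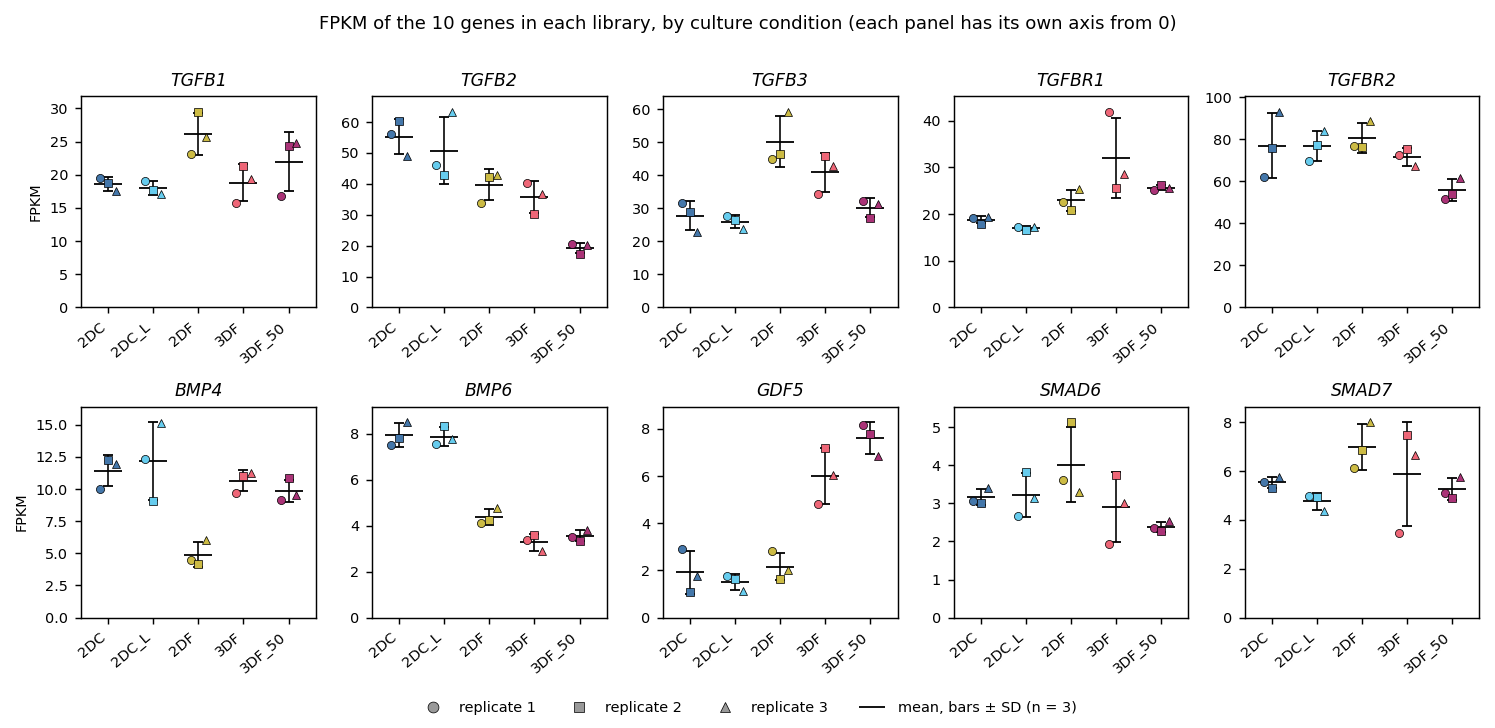
FPKM of each of the 10 genes (y axis, own scale from 0 in each panel) in the 3 libraries of each culture condition (x axis); symbols mark the replicate number and black bars the mean ± SD (n = 3). GDF5 lies at 4.83 FPKM or more in all 6 libraries from 3D matrices and at 2.90 FPKM or less elsewhere, BMP4 is lowest in 2DF, and TGFB2 is lowest in 3DF_50.

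TGFB2 was the leading TGFβ ligand on coated dishes and lost that place in fibrillar collagen. The gene (chromosome 16, 54746240 to 54836028, minus strand) encodes the isoform TGFβ2. Its level was 56.3, 60.3 and 49.1 FPKM in 2DC and 46.1, 43.0 and 63.3 in 2DC_L. The matrix libraries held 33.9, 42.1 and 43.0 (2DF), 40.4, 30.2 and 36.7 (3DF) and 20.4, 17.3 and 20.1 FPKM (3DF_50). All 3DF_50 libraries lay below every other library, and the order ran from 2DC over 2DC_L, 2DF and 3DF to 3DF_50, in which only the step from 3DF to 3DF_50 had no overlap. Against 2DC, TGFB2 was a DEG in 3DF_50 (log2 fold change -1.52, SE 0.10, adjusted p = 1.47e-05), and all 6 fits with 1 library left out kept it. At the higher cell number, 3DF vs. 2DC gave -0.64 (SE 0.14, adjusted p = 0.0172) and 2DF vs. 2DC gave -0.47 (SE 0.12, adjusted p = 0.0284), both short of the fold threshold and each with an adjusted p of at most 0.05 in 2 of 6 leave-one-out fits. The libraries of 3DF and 2DC that share a name prefix differed by -0.27 in TGFB2. Against 2DF, 3DF_50 was lower by a log2 fold change of -1.03 (SE 0.11, adjusted p = 0.000178), which stayed a DEG in 3 of 6 leave-one-out fits (-1.14 to -0.95), and the call was lost with scaling by library size alone (-0.80). Between the libraries of 3DF_50 and 2DF that share a name prefix, the difference was -0.99.

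TGFB3 (chromosome 20, 29182872 to 29208377, plus strand), which encodes the isoform TGFβ3, was highest in 2DF. Its level was 31.5, 28.9 and 23.0 FPKM in 2DC and 27.7, 26.4 and 23.7 in 2DC_L. The fibrillar conditions gave 44.9, 46.5 and 59.2 (2DF), 34.3, 45.7 and 42.8 (3DF) and 32.3, 27.0 and 31.4 FPKM (3DF_50). Every 2DF library lay above every library of both coated-dish conditions. The log2 fold change of 2DF vs. 2DC was 0.86 (SE 0.14, adjusted p = 0.00564), below the fold threshold, with an adjusted p of at most 0.05 in 6 of 6 leave-one-out fits. For 3DF vs. 2DC it was 0.55 (SE 0.16) and missed the test at an adjusted p of 0.0543, and for 3DF_50 vs. 2DC it was 0.12 (SE 0.12, adjusted p = 0.468) with overlap. In 3DF_50 the level was lower than in 2DF by -0.71 (SE 0.12, adjusted p = 0.00267), again short of a DEG.

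TGFB1, which encodes the isoform TGFβ1, moved least among the TGFβ ligands. The libraries held 19.5, 18.7 and 17.5 FPKM in 2DC and 19.1, 17.8 and 17.1 in 2DC_L. In fibrillar collagen the values were 23.2, 29.5 and 25.7 (2DF), 15.8, 21.3 and 19.3 (3DF) and 16.9, 24.3 and 24.7 FPKM (3DF_50). The 2DF libraries were the highest condition by mean, but each neighbouring pair in the order 2DF, 3DF_50, 3DF, 2DC and 2DC_L overlapped. For 2DF vs. 2DC the log2 fold change was 0.49 (SE 0.12, adjusted p = 0.0237), and it turned to -0.01 (adjusted p = 1) when the prefix of the library name was a block in a fit over all 5 conditions. TGFB1 was a DEG in 0 of 10 comparisons.

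The make-up of the TGFβ ligand pool was described per library. The FPKM of TGFB1, TGFB2 and TGFB3 summed to 102 ± 10.4 (2DC), 94.7 ± 8.60 (2DC_L), 116 ± 13.1 (2DF) and 95.5 ± 4.45 (3DF), with the lowest sum of 71.5 ± 4.12 in 3DF_50 (mean ± SD, n = 3). TGFB2 made up 54.4% ± 1.76 of this sum in 2DC and 53.3% ± 6.53 in 2DC_L, against 34.2% ± 1.31 (2DF), 37.6% ± 6.82 (3DF) and 26.9% ± 2.13 (3DF_50). The share of TGFB3 was 27.3% ± 1.91 in 2DC and between 42.3% and 43.2% in the 3 fibrillar conditions. That of TGFB1 was 18.4% ± 1.13 (2DC), 19.1% ± 2.36 (2DC_L), 22.6% ± 2.42 (2DF) and 19.6% ± 2.24 (3DF). In 3DF_50 it was 30.7% ± 5.79, above that of TGFB2 by mean. All these shares depend on the short TGFB1 model. A ratio within 1 library does not depend on the library size, and the FPKM ratio of TGFB2 to TGFB3 was 1.79 to 2.14 in 2DC and 1.63 to 2.67 in 2DC_L, against 0.727 to 0.907 (2DF), 0.661 to 1.18 (3DF) and 0.631 to 0.640 (3DF_50) in fibrillar collagen. All 6 coated-dish libraries thus held more TGFB2 than TGFB3 per length, and 8 of the 9 fibrillar libraries held less. The exception was 3DF replicate 1. These ratios are descriptions and were not tested.

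**Figure D2:**
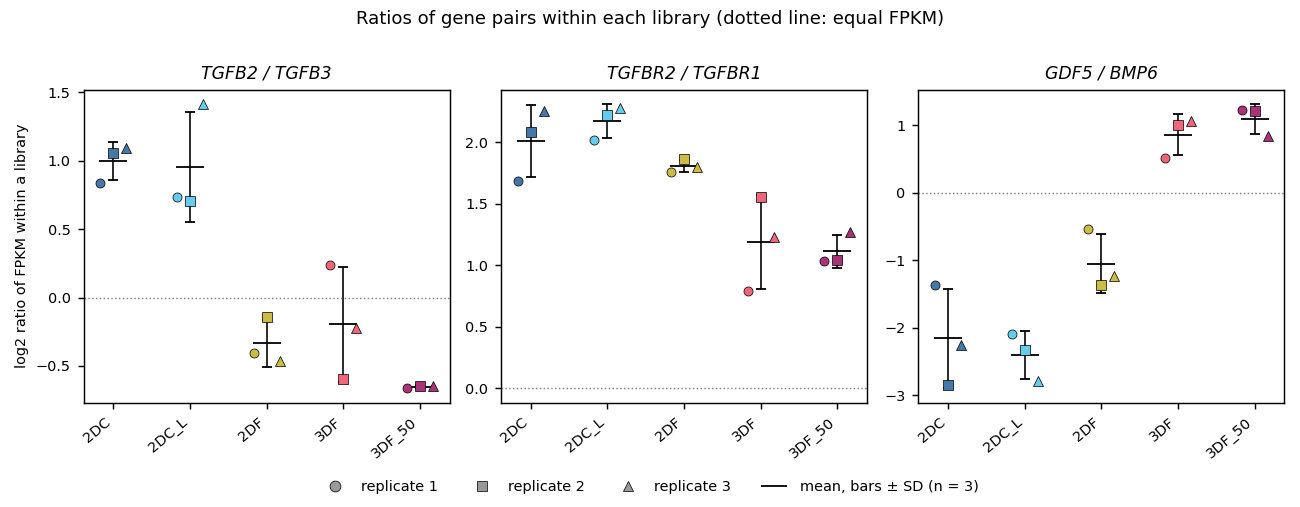
Log2 ratio of FPKM within each library (y axis) for TGFB2 to TGFB3, TGFBR2 to TGFBR1 and GDF5 to BMP6, by culture condition (x axis); symbols mark the replicate number, black bars the mean ± SD (n = 3) and the dotted line equal FPKM. The ratio of GDF5 to BMP6 lies above the line in all 6 libraries from 3D matrices and below it in all 9 others.

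Of the TGFβ receptors, the type I receptor gene TGFBR1 (chromosome 1, 14063554 to 14107695, minus strand) was highest in 3D matrices. TGFBR1 was at 19.2, 17.9 and 19.4 FPKM in 2DC and 17.2, 16.5 and 17.2 in 2DC_L. On fibrillar collagen the libraries held 22.6, 20.9 and 25.4 (2DF), 41.9, 25.6 and 28.6 (3DF) and 25.1, 26.2 and 25.5 FPKM (3DF_50). The value of 3DF replicate 1 stood apart from the other two. All 3D libraries lay above all coated-dish libraries, while 2DF and 3DF_50 overlapped. The log2 fold change was 0.75 in 3DF vs. 2DC (SE 0.18, adjusted p = 0.0231), and it passed the adjusted p in 3 of 6 leave-one-out fits. It missed without any 1 of the 2DC libraries (adjusted p = 0.0625 to 0.106), and without 3DF replicate 1 it was 0.52 (adjusted p = 0.00536). Against the 2DC library of the same name prefix, 3DF replicate 1 gave 1.12. In 3DF_50 vs. 2DC it was 0.44 (SE 0.07, adjusted p = 0.00138), and in 3DF vs. 2DC_L it was 0.92 (SE 0.18, adjusted p = 0.00563), both under the fold threshold.

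TGFBR2 (chromosome 14, 17662677 to 17751116, plus strand), the type II receptor that binds TGFβ, varied little, with a ratio of its highest to its lowest mean of 1.45, the same as for TGFB1. Its libraries held 61.9, 75.9 and 92.9 FPKM in 2DC and 69.6, 77.1 and 83.9 in 2DC_L. The matrix libraries held 76.6, 76.1 and 88.7 (2DF), 72.5, 75.1 and 67.0 (3DF) and 51.6, 53.8 and 61.5 FPKM (3DF_50). Only 3DF_50 stood below its neighbour in the order of means, without overlap with 3DF. In 3DF_50 the log2 fold change was -0.46 against 2DC (SE 0.14, adjusted p = 0.0315) and -0.52 against 2DF (SE 0.11, adjusted p = 0.00957). Against 2DC it became -0.12 (adjusted p = 0.534) with scaling by library size alone, a scaling that shifted the median of all genes there to 0.37. The ratio of TGFBR2 to TGFBR1 was 4.08 ± 0.795 in 2DC, 4.53 ± 0.421 in 2DC_L and 3.51 ± 0.124 in 2DF. In 3D culture it was 2.33 ± 0.599 (3DF) and 2.17 ± 0.208 (3DF_50), and every 3D library lay below every 2D library.

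GDF5 rose in 3D and had the largest fold changes of the set. The gene (chromosome 4, 4355207 to 4358958, plus strand) encodes a BMP-branch ligand known for joint and cartilage development. GDF5 was at 2.90, 1.09 and 1.77 FPKM in 2DC and 1.77, 1.65 and 1.12 in 2DC_L. The fibrillar conditions gave 2.81, 1.66 and 2.03 (2DF), 4.83, 7.20 and 6.03 (3DF) and 8.18, 7.78 and 6.87 FPKM (3DF_50). The 6 libraries from 3D matrices and the 9 from 2D cultures did not overlap, and within each of these groups the conditions did. The log2 fold change was 1.62 in 3DF vs. 2DC (SE 0.34, adjusted p = 0.0138), 1.48 in 3DF vs. 2DF (SE 0.26, adjusted p = 0.009), 1.97 in 3DF_50 vs. 2DC (SE 0.30, adjusted p = 0.00106) and 1.83 in 3DF_50 vs. 2DF (SE 0.22, adjusted p = 0.000327). In 3DF vs. 2DC it lost the call without 2DC replicate 3 (adjusted p = 0.0528) and kept it in the other 5 leave-one-out fits. The epithelial marker sum was 4.55 to 34.7 FPKM in 2DC, 14.6 to 21.8 in 3DF and 2.47 to 15.4 in 3DF_50. Most of it in 2DC was CLDN1, at 3.66, 6.55 and 32.9 FPKM, against 3.99 to 4.64 in 3DF. CLDN1 and TP63 alone of these markers had a smaller mean in 3DF than in 2DC. The keratin KRT5 was at 0.0325 to 0.646 FPKM in 2DC and 0.517 to 3.24 in 2DF. It was at 3.54 to 6.19 FPKM in 3DF and at 0.0135, 0.116 and 2.02 in 3DF_50. The part of epithelial markers in the GDF5 values was not tested.

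BMP6 was lower in 3D matrices than on coated dishes. The gene (chromosome 12, 1470751 to 1647032, plus strand) encodes a BMP that is also known for its part in iron balance. Its libraries held 7.52, 7.81 and 8.51 FPKM in 2DC and 7.54, 8.32 and 7.77 in 2DC_L. In fibrillar collagen the values were 4.10, 4.27 and 4.79 (2DF), 3.38, 3.60 and 2.88 (3DF) and 3.50, 3.35 and 3.83 FPKM (3DF_50). Coated dishes, 2DF and the 3D matrices formed 3 ranges that did not overlap, with 2DF between the others. BMP6 was lower in 3DF than in 2DC by a log2 fold change of -1.28 (SE 0.15, adjusted p = 0.000897), called in 6 of 6 leave-one-out fits, and the pair of libraries with a shared prefix differed by -1.33. In 3DF_50 vs. 2DC the value was -1.15 (SE 0.11, adjusted p = 0.000105), and -0.80 (adjusted p = 0.000754) with scaling by library size alone, which ended the DEG call. In 2DF vs. 2DC it was -0.85 (SE 0.12, adjusted p = 0.00256), under the fold threshold. The difference between 3DF and 2DF, at -0.41 (SE 0.18), did not pass (adjusted p = 0.223).

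BMP4 was set apart by 2DF alone. The gene (chromosome 17, 72720947 to 72723098, minus strand) encodes a BMP with roles in eye and limb development. BMP4 was at 10.04, 12.3 and 11.9 FPKM in 2DC and 12.3, 9.04 and 15.1 in 2DC_L. On fibrillar collagen the libraries held 4.502, 4.19 and 6.03 (2DF), 9.69, 11.03 and 11.3 (3DF) and 9.17, 10.8 and 9.51 FPKM (3DF_50). All 2DF libraries lay below all others, and the 4 remaining conditions overlapped each other in the order of means. The log2 fold change was -1.21 in 2DF vs. 2DC (SE 0.17, adjusted p = 0.00288) and 1.12 in 3DF vs. 2DF (SE 0.20, adjusted p = 0.00908), each called in 6 of 6 leave-one-out fits. In 3DF_50 vs. 2DF it was 1.02 (SE 0.18, adjusted p = 0.00356), at the threshold and called in 3 of 6. For 3DF vs. 2DC it was -0.11 (SE 0.15, adjusted p = 0.659).

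The calls that involve 2DF carry a limit of the design. Library names have a prefix whose meaning the labels do not give, and of the 2DF prefixes only that of replicate 1 recurs in another condition, in 3DF_50 replicate 2. With the prefix as a block in a fit over all 5 conditions, none of the member calls against 2DF was kept, although the log2 fold changes stayed at -1.64 (adjusted p = 0.204) for BMP4 in 2DF vs. 2DC, 1.33 (adjusted p = 0.371) for BMP4 in 3DF vs. 2DF and 1.22 (adjusted p = 0.605) for GDF5 in 3DF vs. 2DF. Within the shared prefix, 3DF_50 and 2DF differed by 1.25 for BMP4 and 1.45 for GDF5. GDF5 and BMP6 kept their calls in 3DF vs. 2DC under the same block, at 1.95 (adjusted p = 0.00687) and -1.24 (adjusted p = 0.00171).

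With GDF5 and BMP6 moving in opposite directions, the ratio of GDF5 to BMP6 was 0.139 to 0.386 in 2DC, 0.145 to 0.235 in 2DC_L and 0.388 to 0.685 in 2DF, against 1.43 to 2.09 (3DF) and 1.79 to 2.34 (3DF_50) in 3D. BMP4 remained the highest of these 3 BMP-branch ligands by mean FPKM in every condition, with BMP6 close to it in 2DF (ratio of BMP6 to BMP4 of 0.908 ± 0.112).

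The inhibitory SMADs, which block receptor SMADs and are themselves induced by BMP and TGFβ signaling, were not DEGs in any of the 10 comparisons. SMAD6 (chromosome 17, 5667874 to 5739751, minus strand), which acts mainly on the BMP branch, was at 3.07, 3.02 and 3.41 FPKM in 2DC and 2.67, 3.83 and 3.14 in 2DC_L. The matrix libraries held 3.61, 5.13 and 3.30 (2DF), 1.93, 3.75 and 3.02 (3DF) and 2.36, 2.27 and 2.53 FPKM (3DF_50). SMAD7 (chromosome 9, 89925759 to 89952211, minus strand), which acts on both branches, was at 5.53, 5.32 and 5.77 FPKM in 2DC and 4.97, 4.96 and 4.36 in 2DC_L. The fibrillar conditions gave 6.13, 6.84 and 7.99 (2DF), 3.48, 7.49 and 6.67 (3DF) and 5.12, 4.90 and 5.78 FPKM (3DF_50). For both genes 3DF replicate 1 was the lowest of all 15 libraries, and all neighbouring conditions overlapped. An adjusted p of at most 0.05 was reached for SMAD6 in 3DF_50 vs. 2DF (log2 fold change -0.73, SE 0.20, adjusted p = 0.0374), and for SMAD7 in 2DF vs. 2DC_L, with 0.56 (SE 0.13, adjusted p = 0.0112). The latter comparison also differs in the digestion step, and against the digested 2DC SMAD7 gave 0.34 (SE 0.12, adjusted p = 0.0819).

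**Figure D3:**
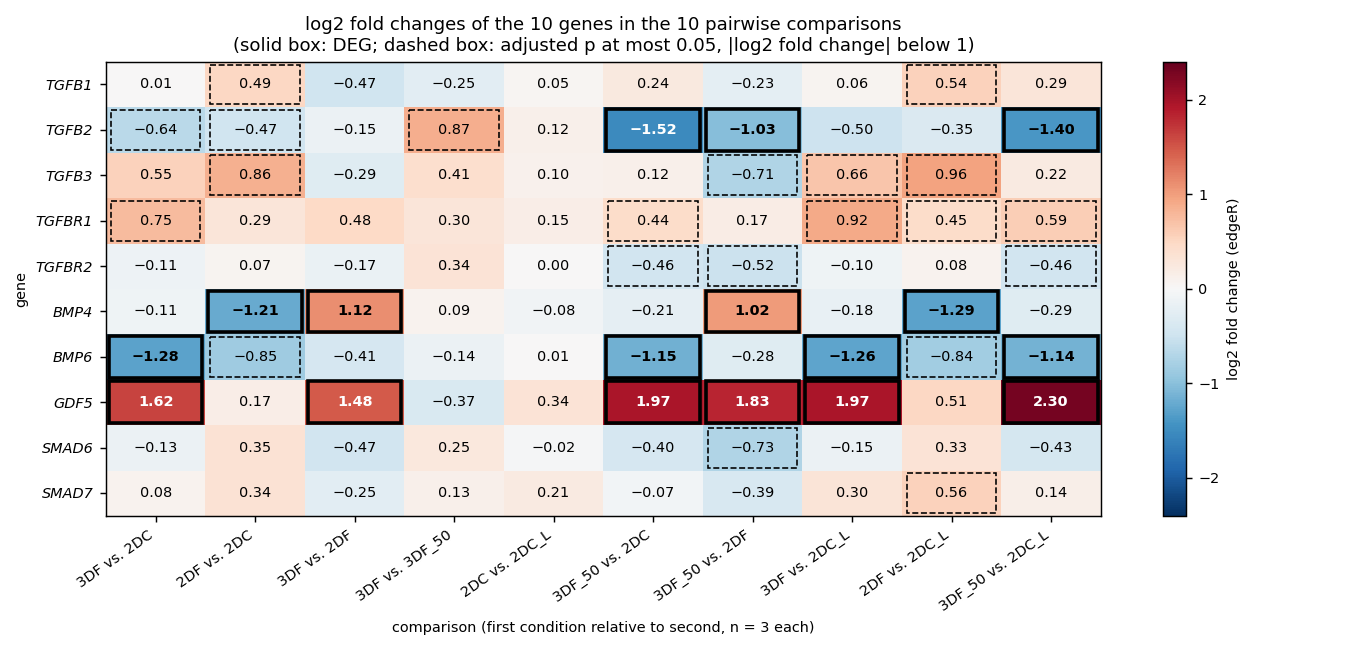
Log2 fold changes in edgeR of the 10 genes (y axis) in the 10 pairwise comparisons (x axis, first condition relative to second, n = 3 each); red is higher and blue lower in the first condition, solid boxes mark DEGs and dashed boxes an adjusted p of at most 0.05 with a smaller fold change. GDF5 is a DEG in all 6 comparisons of a 3D with a 2D condition, and no box stands in 2DC vs. 2DC_L.

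By comparison, 2 members were DEGs in 3DF vs. 2DC (GDF5 higher, BMP6 lower), where 7.56% of all genes tested were DEGs (3.24% higher and 4.32% lower). In 2DF vs. 2DC it was 1 member (BMP4, lower), with 4.96% of all genes DEGs (2.04% higher, 2.93% lower). In 3DF vs. 2DF, 2 members were DEGs (BMP4 and GDF5, both higher), with 3.78% of all genes (2.09% higher, 1.69% lower). TGFB2, BMP6 and GDF5 were the 3 DEGs of 3DF_50 vs. 2DC, where 11.6% of all genes were called, and of 3DF_50 vs. 2DC_L, where 13.5% were. TGFB2, BMP4 and GDF5 were those of 3DF_50 vs. 2DF, against 4.45% of all genes. Against 2DC_L, 3DF gave 2 (BMP6 at -1.26 and GDF5 at 1.97; 10.2% of all genes) and 2DF gave 1 (BMP4 at -1.29; 7.39%). The comparisons share libraries with each other, so their counts do not add up as separate evidence. All 10 members passed the count filter in every comparison.

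Between the cell numbers per matrix, TGFB2 was the member with the largest difference. In 3DF vs. 3DF_50, 0 of 10 members were DEGs in edgeR or DESeq2, with 0.452% of all genes called (0.316% higher and 0.135% lower in 3DF), and 3 members had an unadjusted p under 0.05 in edgeR. TGFB2 alone passed the adjusted p, at a log2 fold change of 0.87 (SE 0.14, adjusted p = 0.0369), which held in 2 of 6 leave-one-out fits and was 0.59 between the libraries with a shared prefix. TGFB3 gave 0.41 (SE 0.14, adjusted p = 0.17) and TGFBR2 0.34 (SE 0.12, adjusted p = 0.187), and neither overlapped between 3DF and 3DF_50. GDF5 gave -0.37 (SE 0.19, adjusted p = 0.316).

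No member passed the test for a difference with the digestion step. In 2DC vs. 2DC_L, 0 of 10 were DEGs in edgeR or DESeq2, with 0.265% of all genes called (0.257% higher and 0.00735% lower in 2DC). The adjusted p lay between 0.865 and 1, the largest |log2 fold change| was 0.34 (GDF5, SE 0.37), and 1 member had an unadjusted p under 0.05. TGFBR1 (0.15, SE 0.07, adjusted p = 0.868) and SMAD7 (0.21, SE 0.09, adjusted p = 0.865) were higher in 2DC than in 2DC_L without overlap. The same step moved early response genes, the transcription factors and feedback regulators induced within minutes of a stimulus: 18 of 26 tested were higher in 2DC and 0 lower, with a median log2 fold change of 3.03 against -0.0048 for all genes. FOS, for example, was at 214 to 275 FPKM in 2DC and at 0.251 to 0.343 FPKM in 2DC_L.

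Other genes of the family were described from lists by role, of which the ligands come first. Of 9 other ligands tested in 3DF vs. 2DC, 2 were higher and 1 lower, with a median log2 fold change of -0.16 against 0.01 for all genes. INHBB, the beta B subunit of activins and inhibins, was higher in 3DF (1.90, SE 0.48, adjusted p = 0.0303) and in 2DF (2.35, SE 0.59, adjusted p = 0.0312) than in 2DC, at a level of at most 1.25 FPKM in any library, and each call held in 2 of 6 leave-one-out fits. BMP5 was higher in 3DF than in 2DC (1.81, SE 0.38, adjusted p = 0.015), called in 4 of 6 leave-one-out fits. It was also higher in 3DF than in 2DF (3.48, SE 0.65, adjusted p = 0.0122), called in 6 of 6. BMP5 too was low, at 0.332 to 0.600 FPKM in 3DF and 0 to 0.171 FPKM in 2DC and 2DF. GDF7 was lower in 3DF than in 2DC (-2.04, SE 0.34, adjusted p = 0.00577), at 0.192 FPKM or less throughout. BMP3, an unusual BMP that opposes other BMPs, was well expressed, at 38.9, 55.5 and 39.1 FPKM in 2DC and 14.5, 23.8 and 18.1 in 2DF. It was lower in 2DF than in 2DC (-1.24, SE 0.20, adjusted p = 0.00437) and higher in 3DF than in 3DF_50 (1.16, SE 0.18, adjusted p = 0.0318), the latter in 1 of 6 leave-one-out fits. In 2DF vs. 2DC, 1 of 7 tested ligands was higher and 1 lower, and in 3DF vs. 2DF it was 1 and 1 of 8.

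Among 13 other receptors and coreceptors tested in 3DF vs. 2DC, where 7.56% of all genes were DEGs, 1 was lower in 3DF. This was ENG, which encodes the coreceptor endoglin, at 81.3, 88.5 and 84.8 FPKM in 2DC, 118, 127 and 168 in 2DF and 29.3, 43.2 and 38.1 in 3DF. The 3DF libraries lay below all 2D libraries. The log2 fold change of ENG was -1.21 in 3DF vs. 2DC (SE 0.16, adjusted p = 0.0016) and -1.90 in 3DF vs. 2DF (SE 0.19, adjusted p = 0.000683). TGFBR3, which encodes betaglycan, the coreceptor that presents TGFβ2 to its receptors, was at 26.0 to 28.7 FPKM in 3DF, 26.0 to 32.9 in 3DF_50, 13.9 to 15.03 in 2DC and 10.97 to 13.1 in 2DF. It was a DEG in 3DF vs. 2DF (1.22, SE 0.13, adjusted p = 0.000885) and fell just short in 3DF vs. 2DC (0.91, SE 0.10, adjusted p = 0.000877). BAMBI, a pseudoreceptor without kinase domain, was higher in 2DF than in 2DC (1.03, SE 0.21, adjusted p = 0.0126), in 2 of 6 leave-one-out fits. Of 13 tested, 2DF vs. 2DC gave 1 higher and 0 lower, whereas 3DF vs. 2DF gave 1 and 1. Of all genes, 4.96% and 3.78% were DEGs in these comparisons.

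Of 16 other SMADs and SMAD regulators tested in 2DF vs. 2DC, 3 were higher and 0 lower, with a median log2 fold change of 0.18 and 2.04% of all genes higher. The 3 genes are known as negative regulators of TGFβ signaling, and none kept its call with the prefix as a block. PMEPA1 was at 13.9, 11.7 and 10.4 FPKM in 2DC, 35.4, 38.8 and 46.98 in 2DF and 19.0, 13.7 and 6.56 in 3DF. PMEPA1 had a log2 fold change of 1.75 in 2DF vs. 2DC (SE 0.15, adjusted p = 0.000313) and -1.61 in 3DF vs. 2DF (SE 0.31, adjusted p = 0.0149). SKIL gave 1.35 (SE 0.15, adjusted p = 0.000901) and TGIF1 1.12 (SE 0.13, adjusted p = 0.00117) in 2DF vs. 2DC, and the adjusted p was 0.378 and 0.424 with that block. Receptor SMADs and SMAD4 that passed the count filter were DEGs in 0 of the 5 comparisons shown for these lists, which are those between 2DC, 2DF and 3DF, the one of cell number and the one of the digestion step. The list held 0 DEGs of 15 for 3DF vs. 2DC, and 1 (higher) when scaled by library size alone.

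Genes for the latency and activation of TGFβ that were DEGs between 3DF and 2DC or 2DF were lower in 3DF. In 3DF vs. 2DC, where 4.32% of all genes were lower, 4 of 16 tested were lower and 0 higher, with a median log2 fold change of -0.45. The same held for 4 of 16 in 3DF vs. 2DF, with a median of -0.25 and 1.69% of all genes lower. In both comparisons these were FBN2, a fibrillin of the microfibrils that anchor latent TGFβ, and ASPN, FMOD and BGN, which encode the small proteoglycans asporin, fibromodulin and biglycan that bind TGFβ. The call of FMOD in 3DF vs. 2DC held in 4 of 6 leave-one-out fits. Short of the fold threshold, ITGB8, which encodes an integrin subunit, was higher in 3DF than in 2DC (0.60, SE 0.14, adjusted p = 0.0221). THBS1 (-0.89, adjusted p = 0.00753), FBN1 (-0.90, adjusted p = 0.00223) and BMP1 (-0.71, adjusted p = 0.0133) were lower. The study itself pointed to ASPN, FMOD, BGN and FBN1 from these samples, so these genes are no independent evidence of a direction. ASPN fell furthest in 3DF, from 236, 319 and 425 FPKM in 2DC to 27.5, 33.8 and 20.7 FPKM, a log2 fold change of -3.59 (SE 0.27, adjusted p = 0.000161). LRRC32, which encodes GARP, a cell-surface anchor of latent TGFβ, was the 1 gene of the list that was higher in 2DF than in 2DC (1.41, SE 0.11, adjusted p = 0.000228).

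Extracellular antagonists of BMPs and activins differed between the matrix conditions. NOG, which encodes noggin, was at 0.262, 0.350 and 0.890 FPKM in 2DC, 4.74, 5.67 and 8.76 in 2DF, 1.06, 1.89 and 0.932 in 3DF, and 0.679, 2.12 and 0.784 in 3DF_50. All 2DF libraries, those with the lowest BMP4, lay above all others. NOG was higher in 2DF than in 2DC by a log2 fold change of 3.70 (SE 0.45, adjusted p = 0.00134) and lower in 3DF than in 2DF by -2.29 (SE 0.35, adjusted p = 0.00404). BMPER, which encodes a secreted protein that binds BMPs and can oppose or aid them, was at 47.8, 44.8 and 47.1 FPKM in 2DC, 23.5, 25.6 and 30.0 in 2DF and 9.75, 13.0 and 9.43 in 3DF. The order of these conditions held without overlap, with -2.13 in 3DF vs. 2DC (SE 0.15, adjusted p = 0.000159) and -1.29 in 3DF vs. 2DF (SE 0.16, adjusted p = 0.00199). CHRDL1, a chordin-like antagonist of BMP4, was higher in 3DF than in 2DC (1.29, SE 0.22, adjusted p = 0.0058), 2DF (1.96, SE 0.29, adjusted p = 0.00395) and 3DF_50 (1.42, SE 0.25, adjusted p = 0.0445), the last in 2 of 6 leave-one-out fits. TLL1 was higher in 3DF than in 2DC by 3.11 (SE 0.28, adjusted p = 0.000302), but its product is a protease that cleaves chordin and is not an antagonist. For 3DF vs. 2DC the list held 2 higher and 1 lower of 10. For 2DF vs. 2DC it held 1 and 0 of 10, and the direct comparison of 3DF with 2DF gave 2 and 2 of 9. Of all genes, 7.56%, 4.96% and 3.78% were DEGs in these comparisons, in that order.

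**Figure D4:**
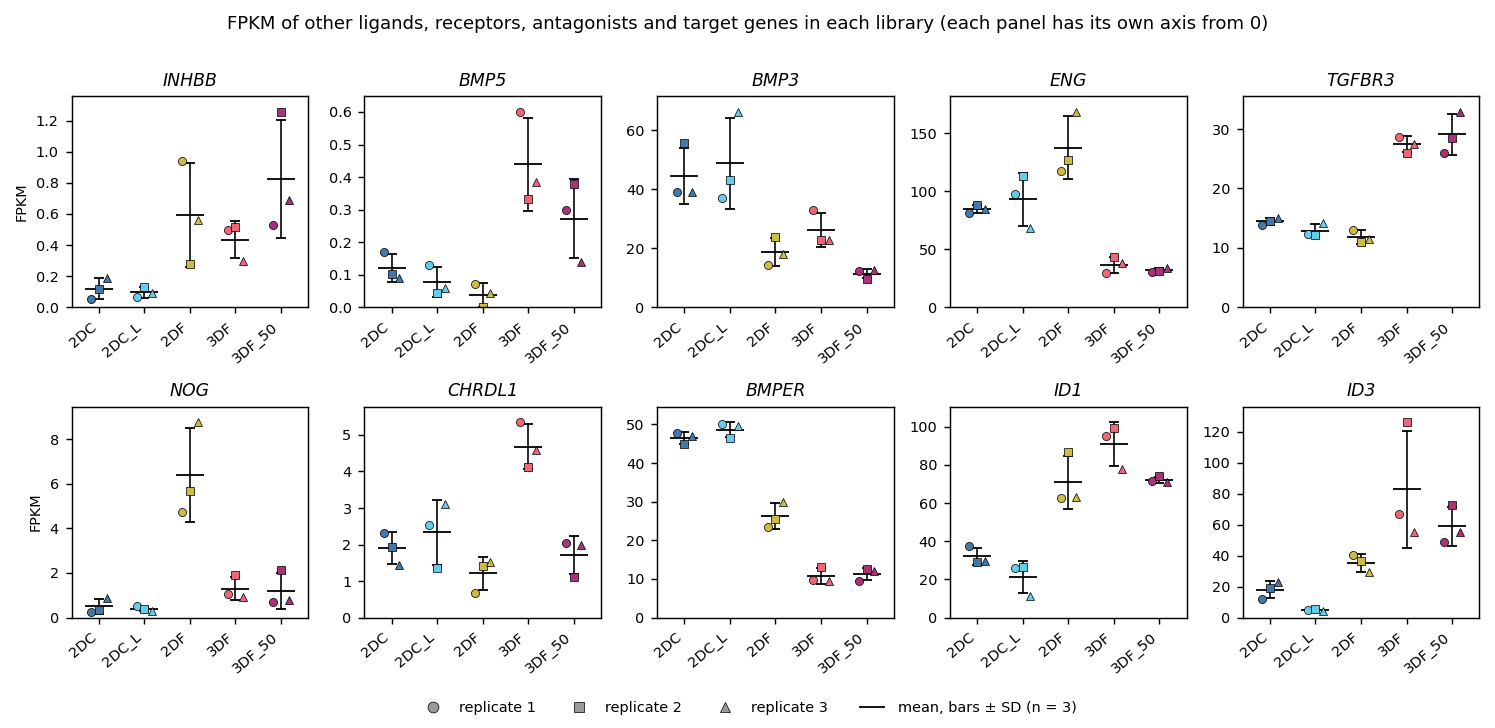
FPKM (y axis, own scale from 0 in each panel) of 10 other genes of the family in the 3 libraries of each culture condition (x axis); symbols mark the replicate number and black bars the mean ± SD (n = 3). NOG is highest in the 2DF libraries (4.74 to 8.76 FPKM), TGFBR3 is higher and ENG and BMPER are lower in both 3D conditions than in the others, and ID1 and ID3 are lowest in 2DC_L and 2DC.

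Some target genes of BMP signaling were higher in 3DF than in 2DC. Of the 16 genes listed, 10 did not pass the count filter in any of the 5 comparisons. Of the 6 tested in 3DF vs. 2DC, where 3.24% of all genes were higher, 4 were higher and 0 lower (median log2 fold change 1.58). They were the inhibitors of differentiation ID1 (1.496, SE 0.15, adjusted p = 0.000498), ID2 (1.66, SE 0.40, adjusted p = 0.0247) and ID3 (2.19, SE 0.34, adjusted p = 0.00417), and the transcription factor ATOH8 (4.71, SE 0.46, adjusted p = 0.000485). ID1 was at 37.4, 29.3 and 29.4 FPKM in 2DC, 62.4, 87.0 and 63.2 in 2DF, 95.3, 99.6 and 78.1 in 3DF, and 71.5, 74.1 and 70.9 in 3DF_50. ID2 was low, at 1.77 FPKM or less. Its call held in 2 of 6 leave-one-out fits and was lost with the prefix of the library name as a block (adjusted p = 0.0958). The list as a whole held 3 or 4 higher genes in each such fit. ID1 (1.15, SE 0.15, adjusted p = 0.00191) and ATOH8 (3.26, SE 0.61, adjusted p = 0.00896) were also higher in 2DF than in 2DC, and ID3 was higher in 3DF than in 2DF (1.23, SE 0.28, adjusted p = 0.0276), in 2 of 6 leave-one-out fits. That made 1 higher of 6 for 3DF vs. 2DF, 0 without any 1 of the 2DF libraries or without 3DF replicate 2, and 2 without 3DF replicate 1. It was 2 of 6 for 2DF vs. 2DC, and 1 without 2DF replicate 2. ID3 also differed with the digestion step: it was at 12.1, 19.3 and 23.0 FPKM in 2DC against 5.00, 5.82 and 4.52 in 2DC_L, a log2 fold change of 1.81 (SE 0.24, adjusted p = 0.0192) that was called in 2 of 6 leave-one-out fits. ID genes respond to growth factors other than BMPs as well, and 7 of 26 early response genes were higher and 3 lower for 3DF vs. 2DC. The counts were 8 and 0 for 2DF vs. 2DC, and 0 and 2 for 3DF vs. 2DF, where 7 were lower without 3DF replicate 2 and 3 without 2DF replicate 2 or 3. The part of the early response in the ID values was not tested.

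The listed target genes of TGFβ signaling, many of them matrix and contractile genes, were for the most part lower in 3DF than in 2DC. Of 22 tested in 3DF vs. 2DC, 13 were lower and 1 higher, with a median log2 fold change of -1.49, and in leave-one-out fits 12 or 13 were lower. Of all genes, 4.32% were lower and 3.24% higher in 3DF vs. 2DC. The lower genes were CTGF, TGFBI, POSTN, ACTA2, TAGLN, MYL9, FN1, COL1A1, COL1A2, COL3A1, TNC, TIMP1 and ADAM12, which encode matrix proteins, contractile proteins and their regulators. CTGF, a matricellular growth factor, was at 104, 170.0 and 281 FPKM in 2DC and 7.94, 12.9 and 7.10 in 3DF (-4.32, SE 0.40, adjusted p = 0.000389). TNC, which encodes tenascin C, was at 20.7, 43.4 and 75.2 FPKM in 2DC, 1.60, 0.951 and 6.62 in 2DF and 0.422, 0.441 and 0.325 in 3DF (-6.88 in 3DF vs. 2DC, SE 0.51, adjusted p = 0.000161). The study had named COL1A1, COL3A1, TNC, FN1, ACTA2, TAGLN and POSTN from these samples, so the count is no independent evidence of its direction. Many of these genes respond to cell tension as well as to TGFβ. SMAD7, also induced by TGFβ signaling, is outside this list and was not lower in 3DF than in 2DC (0.08, SE 0.26, adjusted p = 0.868). Nor were the negative regulators PMEPA1 (0.11, adjusted p = 0.849), SKIL (0.59, adjusted p = 0.0751) and TGIF1 (0.84, adjusted p = 0.0262) lower there. The direction of the list is thus not that of every gene tied to the pathway.

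The list genes that were higher were CTHRC1 in 3DF and ELN in 2DF. CTHRC1, a secreted protein of collagen-producing cells, was at 1.49, 1.15 and 1.36 FPKM in 2DC and 12.4, 16.4 and 10.1 in 3DF (3.26, SE 0.25, adjusted p = 0.000184). The study had also named CTHRC1 as high in 3D from these samples. ELN, which encodes elastin, was set apart in 2DF, at 9.22, 8.59 and 21.3 FPKM against 1.34, 0.261 and 0.148 in 2DC (4.37, SE 0.64, adjusted p = 0.00305). In 2DF vs. 2DC, 4 of 21 tested targets were lower and 1 higher, and in 3DF vs. 2DF 7 were lower and 1 higher of 21. Of all genes, 2.93% and 1.69% were lower in these comparisons. The 4 lower targets became 2 without 2DC replicate 2, 2DF replicate 1 or 2DF replicate 2, and without 2DC replicate 3 the count of higher targets was 3. For 3DF vs. 2DF the lower count ran from 4 (without 2DF replicate 3) to 9 (without 3DF replicate 2). In 3DF vs. 3DF_50 the one DEG of the list was ADAM12 (1.39, SE 0.20, adjusted p = 0.0318), called in 3 of 6 leave-one-out fits, and in 2DC vs. 2DC_L it was SNAI1 (1.63, SE 0.20, adjusted p = 0.0158), called in 4 of 6.

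**Figure D5:**
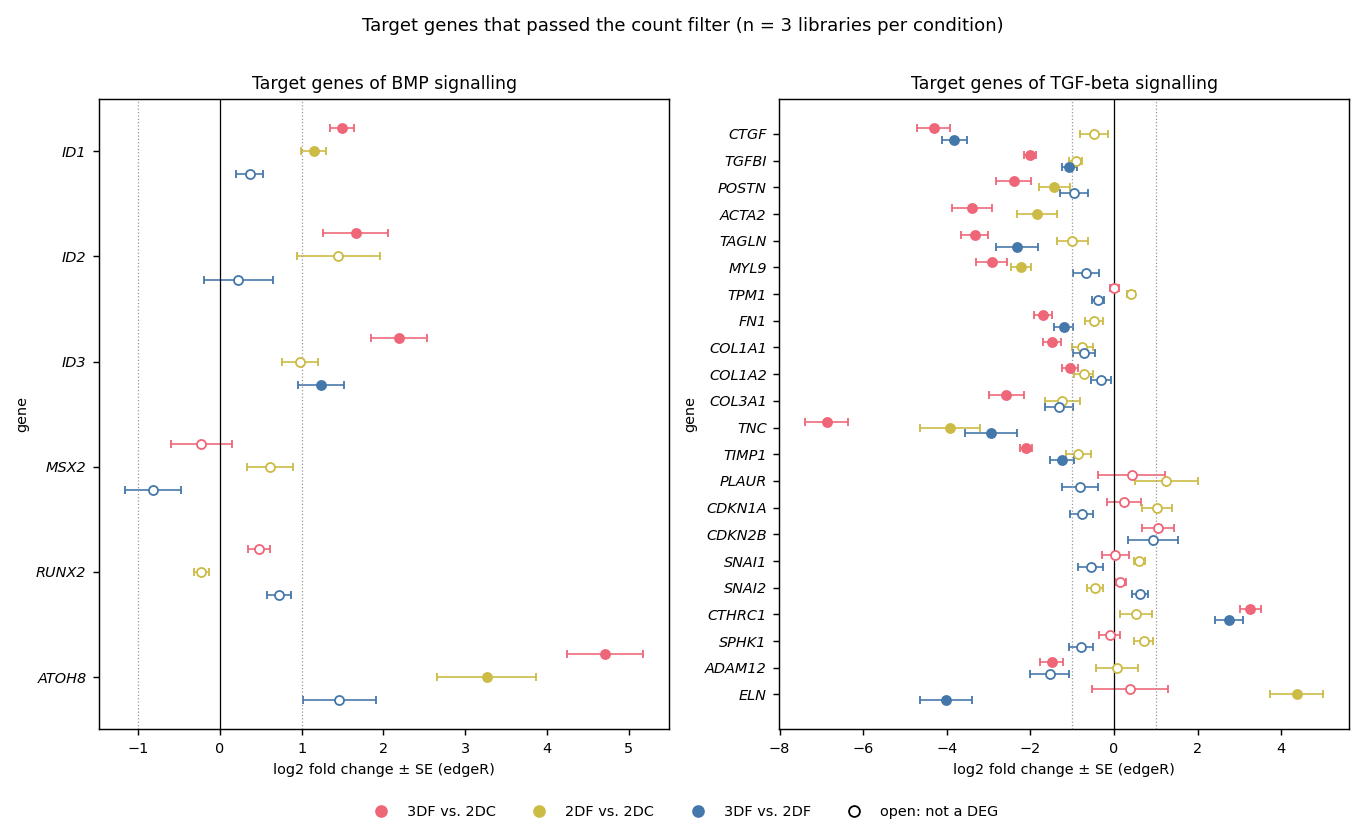
Log2 fold change ± SE in edgeR (x axis) of the listed target genes of BMP signaling (left) and TGFβ signaling (right) that passed the count filter (y axis), for each pair of the conditions 2DC, 2DF and 3DF (n = 3 libraries each); filled points are DEGs and dotted lines mark a |log2 fold change| of 1. In 3DF vs. 2DC, 4 of 6 BMP targets lie to the right and 13 of 22 TGFβ targets to the left as filled points.

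As for the members, the library prefix limits the calls of the other genes against 2DF. Of the 23 list genes called in 2DF vs. 2DC, 1 was called with the prefix as a block (FOSB, an early response gene), and 0 of the 24 called in 3DF vs. 2DF were, against 36 of 39 in 3DF vs. 2DC. NOG gave 1.70 (adjusted p = 0.58) in 2DF vs. 2DC and PMEPA1 1.61 (adjusted p = 0.118) in that fit.

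The genes whose pattern was most like that of a member were ranked by Pearson's r of log2(FPKM + 1) over the 15 libraries among 9688 genes with a mean of at least 1 FPKM. These values describe likeness in libraries that share conditions, carry no test, and say nothing of function. For BMP6 they were SQLE, MSMO1 and NSDHL (r = 0.983, 0.982 and 0.981), which encode enzymes of sterol synthesis. For TGFBR1 they were TFAM, SIRT1 and TNKS2 (0.979, 0.976 and 0.975). For TGFB2 they were GRIA3, PFN2 and KDELR2 (0.977, 0.965 and 0.964), for TGFB3 ARHGAP44, SMO and CHSY3 (0.960, 0.946 and 0.939), for TGFBR2 PTPN13, PLOD2 and GXYLT2 (0.924, 0.912 and 0.897) and for GDF5 SYT6, EPHX1 and SH2B3 (0.9579, 0.95002 and 0.9485). For the remaining members the closest gene was at a lower r, namely SGSM2 for BMP4 (0.890), NFKBID for TGFB1 (0.861), HSD3B7 for SMAD6 (0.907) and WTIP for SMAD7 (0.911).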

How the data were processed

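RNA was sequenced from 15 libraries, grouped by the condition in their labels, with 3 per condition. The authors aligned reads to oryCun2 with HISAT2 2.0.5 and counted them per gene with featureCounts 1.5.0-p3, and the deposited counts were used as they stand. The deposited FPKM values were made by the authors from the same counts and exon lengths, with a library size 1.03 to 1.05 times the trimmed-mean (TMM) size. Each pair of conditions was fitted apart in edgeR 4.0.16 (R 4.3.3) with TMM scaling, filterByExpr (minimum count 10), glmQLFit and glmQLFTest, and p-values were adjusted over all genes tested. The replicates come from separate experiments per the study's methods. The code was tested on simulated data.

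The members and gene lists were chosen with earlier results of these data known. Named genes are the members, list genes called in at least 1 of 5 comparisons (early response genes were mostly only counted), and for each member the 3 genes with the highest r. Alternatives were DESeq2 1.42.0 and its size factors, library size alone, other count filters, a fit over all 5 conditions, blocks by replicate number or library-name prefix, limma 3.58.1 with FPKM on a log2 scale (pseudocounts of 1 and 0.1), no fold threshold, and leaving out each library. Python 3.11.15, numpy 2.4.6, pandas 2.3.3 and matplotlib 3.10.9 were used for tables and figures. Sequences of the members were not used here. 1 listed target gene is not reported here.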

Additional observations from a re-analysis of the deposited data

How the results depend on the processing

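The 38 member results with an adjusted p of at most 0.05 in the main fits were followed across the alternatives, and the others were not tallied. Of 638 values of their log2 fold changes, 552 counted as kept, 73 kept the direction but missed the threshold, and 1 reversed. Kept means the same direction and an adjusted p of at most 0.05, and for a DEG also a |log2 fold change| of at least 1. A value short of the fold threshold in the main fit counted as kept even where it crossed it. Among leave-one-out fits, TGFB3 did so in 3 of 6 for 2DF vs. 2DC_L and TGFBR1 in 1 of 6 for 3DF vs. 2DC_L. Single differences between libraries of a shared prefix carry no test and counted as kept unless they lay further from the fitted value than its SE, as 12 did. The reversal was TGFB1 in 2DF vs. 2DC with the library prefix as a block, at -0.0055, and its cause was not tested. That block left 0 members called in 2DF vs. 2DC, 3DF vs. 2DF, 3DF_50 vs. 2DF and 2DF vs. 2DC_L. Without a fold threshold, the number of members called became 4 in 3DF vs. 2DC (2073 of 13493 genes tested) and 5 in 2DF vs. 2DC (1903 of 13258). It was 1 in 3DF vs. 3DF_50 (82 of 13285) and 5 in 3DF_50 vs. 2DC (5098 of 13402). For 3DF_50 vs. 2DF it was 6 (1764 of 13201), and for 3DF vs. 2DC_L 4 (3161 of 13551). The last were 6 in 2DF vs. 2DC_L (2974 of 13152) and 5 in 3DF_50 vs. 2DC_L (5713 of 13321). With library size alone, 2 were called in 2DF vs. 2DC_L and 3 in 3DF vs. 2DC_L, and 2 in place of 3 in each comparison of 3DF_50 with a 2D condition (without BMP6 against 2DC and 2DC_L, and without TGFB2 against 2DF). On log2(FPKM + 1), limma called 1 in 3DF vs. 2DF and likewise 2 in place of 3 in those comparisons of 3DF_50. Leaving out 1 library gave 1 to 2 members in 3DF vs. 2DC (1 without 2DC replicate 3), 1 to 3 in 3DF_50 vs. 2DF (1 without 2DF replicate 2 or 3DF_50 replicate 2) and 1 to 2 in 2DF vs. 2DC_L (2 without 2DC_L replicate 1 or 2DF replicate 1 or 2). The replicate block changed no count of members called (2 in 3DF vs. 2DC). Same-numbered libraries were correlated at -0.171 to 0.313 in their deviations from the condition means, and in 0 of 10 comparisons were all 3 pairs above 0.1, so the numbers were not treated as pairs. The 9 pairs of libraries that share a name prefix were correlated at 0.0147 to 0.313, and the main fits do not use the prefix. GDF5, at 28 to 245 reads per library, is the member whose values depth limits most. Over all genes, limma with a pseudocount of 1 called fewer DEGs in 9 comparisons: 534 (1020 in edgeR) for 3DF vs. 2DC, 302 (658) for 2DF vs. 2DC, 268 (499) for 3DF vs. 2DF, 6 (60) for 3DF vs. 3DF_50, 779 (1557) for 3DF_50 vs. 2DC, 347 (587) for 3DF_50 vs. 2DF, 740 (1386) for 3DF vs. 2DC_L, 491 (972) for 2DF vs. 2DC_L and 946 (1801) for 3DF_50 vs. 2DC_L. The prefix block called 16 in 2DF vs. 2DC, 4 in 3DF vs. 2DF, 10 in 3DF vs. 3DF_50, 236 in 3DF_50 vs. 2DF and 87 in 2DF vs. 2DC_L. The count of 60 for 3DF vs. 3DF_50 was 202 in DESeq2, 155 without a filter, 196 with all 5 conditions in the fit, 16 in limma with a pseudocount of 0.1, and 0 to 77 with 1 library left out. Without a fold threshold, 798 (of 13195 tested in 3DF vs. 2DF) to 5713 genes (of 13321 in 3DF_50 vs. 2DC_L) passed in 8 of the comparisons.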
